A study of Glycine max with 9 samples.

Results

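E3 (Glyma.19G224200) and E4 (Glyma.20G090000) are soybean maturity loci that encode phytochrome A, and they are 2 of the 56044 gene IDs in the deposited expression table. They were chosen by their locus names, and both were above 0 in all 9 libraries. RNA was sequenced from root hair cells, the tip-growing outgrowths of the root epidermis, of Glycine max plants labelled with the genotype "willam 82" and grown in an ultrasound aeroponic system under controlled conditions. The groups titled 12h, 24h and 48h held 3 libraries each, labelled as 276, 288 and 312 hours after sowing, with the same genotype, system and cell type in all and no treatment stated. By these labels, 12 hours separated 24h from 12h plants, and 24 hours separated 48h from 24h plants. The sources used here give neither light regime nor harvest hour, so age and hour of the day cannot be told apart. Whether replicate libraries are of separate plants or cultures is not stated, and the spread that each p-value measures may be technical.

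Phytochromes are light receptors that switch between a red-absorbing form and a far-red-absorbing form. In Arabidopsis, phytochrome A accumulates in darkness, is degraded in light, enters the nucleus with the help of FHY1-type proteins, and there restrains the COP1 and SPA repressors so that HY5-type factors persist. Its transcript also falls in light in that species. In soybean leaves, E3 and E4 delay flowering under long days by keeping E1, a repressor of florigen genes of the FT family, active. Soybean carries phytochrome A loci in pairs left by genome duplication. PHYA1 (Glyma.10G141400) is published as the duplicate of E4, which is also called PHYA2, and PHYA4 (Glyma.03G227300) as the duplicate of E3, which is also called PHYA3. Names of loci other than E3 and E4 are published soybean locus names that no annotation used here could check. Duplicates share sequence, so reads may be split between them and their separate values are uncertain.

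The libraries were unequal before any group was compared. The median level of tested genes was lowest in 12h replicate 2, at 3.23 FPKM, and highest in 48h replicate 1, at 6.72 FPKM. FPKM means fragments scaled by transcript length and by mapped fragments. Size factors from the median of ratios over genes were 0.591 in 12h replicate 2 and 0.787 in 24h replicate 3, and 0.954 to 1.22 in the other 7 libraries. Over the 9 libraries the Pearson correlation of the log2(FPKM + 1) level with the log2 size factor was 0.87 for E4 and 0.59 for E3, a description of libraries that share both measures. E3 and E4 are therefore given as deposited and after division by these size factors. In such bulk samples, fewer cells of a type and less RNA per cell cannot be told apart. Root hair markers were not checked, because 0 gene IDs could be matched to a description.

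E3 was a low transcript that was lowest at 24h. Its level was 1.60, 0.428 and 1.97 FPKM in the 12h libraries, 0.658, 0.163 and 0.0910 FPKM in the 24h libraries, and 2.65, 1.47 and 1.97 FPKM in the 48h libraries. Every 24h library lay below every 48h library, whereas 12h replicate 2 lay below 24h replicate 1. After scaling, E3 stood at 1.41, 0.724 and 2.07 at 12h, at 0.603, 0.155 and 0.116 at 24h, and at 2.19, 1.20 and 1.69 at 48h. All 3 scaled 24h values were then below the other 6, and the 12h and 48h values overlapped. The 12h, 24h and 48h means of E3 as deposited were 1.33 ± 0.807, 0.304 ± 0.309 and 2.03 ± 0.592 FPKM (± SD, 3 libraries per group).

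E4 was more abundant and was highest at 48h. Its level was 11.4, 3.31 and 10.01 FPKM in the 12h libraries, 15.4, 5.84 and 6.80 FPKM in the 24h libraries, and 16.2, 17.2 and 20.5 FPKM in the 48h libraries. All 48h values were above all 12h and 24h values, and the 12h and 24h values were intermixed. After scaling, E4 stood at 10.05, 5.61 and 10.5 at 12h, at 14.2, 5.55 and 8.64 at 24h, and at 13.4, 14.1 and 17.6 at 48h. The scaled 48h values were still above those at 12h, but 24h replicate 1 lay among them. Its 12h, 24h and 48h means as deposited were 8.24 ± 4.33, 9.36 ± 5.29 and 17.98 ± 2.27 FPKM (± SD, 3 libraries per group).

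**Figure D1:**
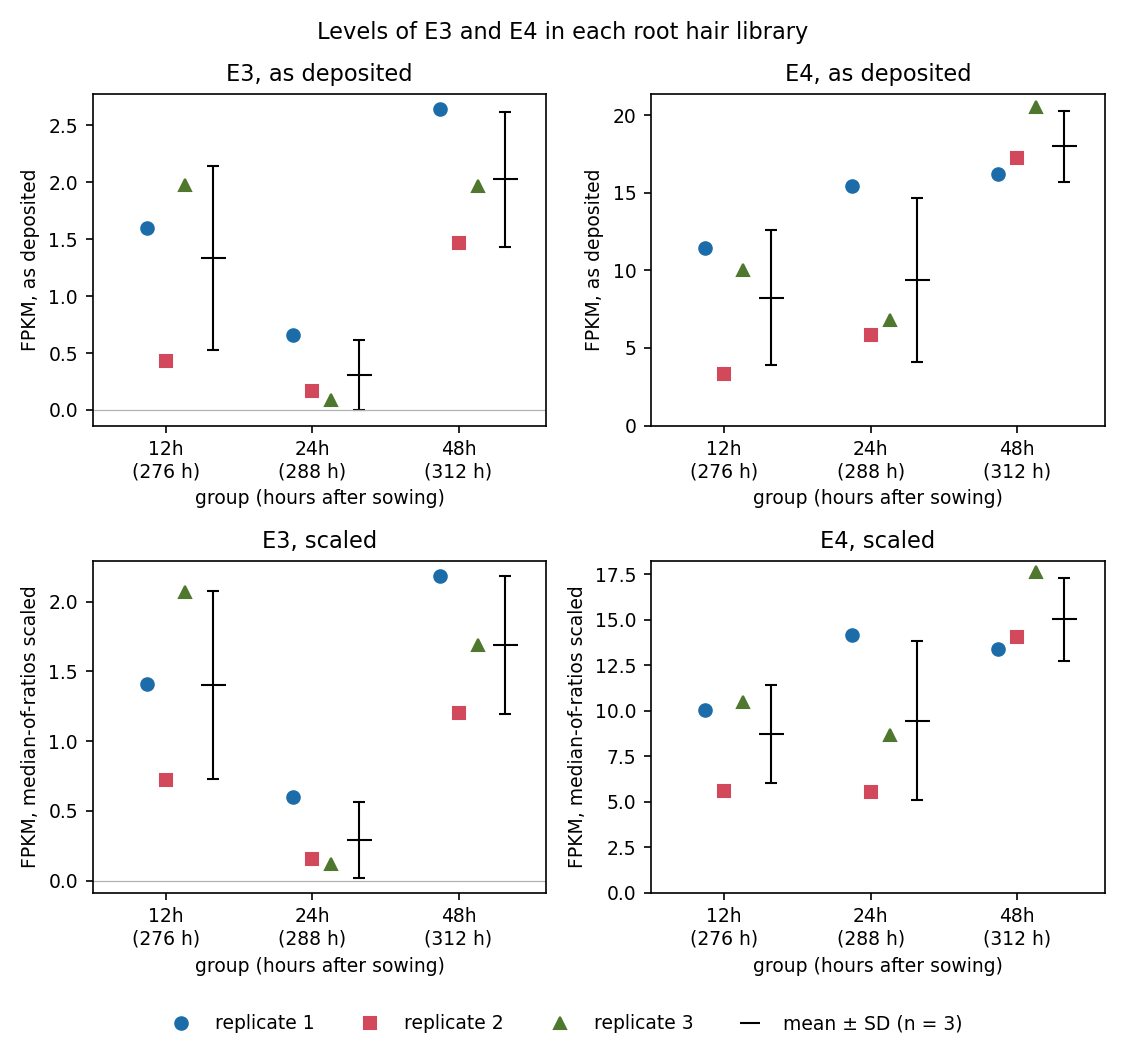
Each point is 1 library, in FPKM as deposited (upper panels) and after median-of-ratios scaling (lower panels), for E3 (left) and E4 (right), by group with hours after sowing; bars are the mean ± SD of 3 libraries. The 24h points of E3 reach at most 0.658 FPKM as deposited, and the 48h points of E4 start at 16.2 FPKM.

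Among the 31518 tested genes of the same library, E4 ranked above 50.6% to 79.7% of them, with the lowest rank in 12h replicate 2 and the highest in 48h replicate 3. E3 ranked above 8.0% to 23.8% in the 12h libraries, above 1.29% to 3.31% in the 24h libraries and above 9.56% to 23.2% in the 48h libraries. This rank does not depend on the scaling of a library, and the 24h libraries were again the lowest for E3. E3 reached the 1 FPKM of the filter on low values in 5 libraries, none of them at 24h, and passed it through the 12h and 48h groups.

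Neither gene passed the test between any 2 ages. Changes were tested with limma's moderated test on log2(FPKM + 1) over all tested genes, adjusted by the Benjamini-Hochberg method, which called 0.0381% of genes in the comparison of 24h with 12h, 0% in that of 48h with 24h, and 0.117%, all of them higher, in that of 48h with 12h. At an unadjusted p under 0.05, limma gave 9.96%, 17.9% and 10.8% of genes in the same comparisons. A call at this threshold was thus rare for any gene.

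For 24h against 12h, the fitted log2 difference of E3 was -0.80 with an SE of 0.32, and a 95% interval of -1.50 to -0.10, and it did not pass (limma adjusted p = 0.499, unadjusted p = 0.0292). It passed without 12h replicate 2 (log2 fold change -1.12, limma adjusted p = 0.0350), when 12.1% of all tested genes were called, 1382 higher and 2421 lower. With 0.1 FPKM added in place of 1, the difference of E3 was -1.87, not called. After scaling the change of E3 was -0.88, with the groups apart, as were 8.79% of all tested genes in the lower direction. The log2 difference of E4 was 0.19, with an SE of 0.46 (limma adjusted p = 0.867) and an interval of -0.80 to 1.19 that leaves its direction unresolved. Its sign turned without 12h replicate 2 (-0.29) and without 24h replicate 1 (-0.20).

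For 48h against 24h, E3 had the larger estimate, at 1.22 ± 0.32 on the log2 scale (SE; 95% interval 0.52 to 1.92, limma adjusted p = 0.248, unadjusted p = 0.00258). With 0.1 FPKM added it was 2.62, not called. E3 passed without 12h replicate 2 (limma adjusted p = 0.0369), as did 11.8% of all tested genes. It also passed when the 24h and 48h libraries were fitted alone (limma adjusted p = 0.0294), as did 17.2% of them, and in that fit after scaling, as did 12.1%. Array weights called both E3 and E4 here, along with 30.6% of all tested genes. E4 had a change of 0.98 ± 0.46 (SE; interval -0.01 to 1.97, limma adjusted p = 0.284). Both genes were above 24h in every 48h library as deposited, as were 32.6% of tested genes. After scaling this held for E3, as for 22.5% of tested genes, but not for E4. The scaled changes were 1.06 for E3 and 0.69 for E4. As deposited, the changes of 1.22 and 0.98 stood beside a median over all tested genes of 0.23.

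For 48h against 12h, 36 hours apart, the order of the genes turned round. The log2 difference of E4 was 1.17 ± 0.46 (SE; 95% interval 0.18 to 2.17, limma adjusted p = 0.456, unadjusted p = 0.0245). The groups did not overlap, as for 19.8% of tested genes in this direction as deposited, and after scaling for 8.07% of them. The difference was 0.75 after scaling and 0.69 without 12h replicate 2. As deposited, the 1.17 of E4 stood beside a median of 0.34 over all tested genes. E3 had a change of 0.42 ± 0.32 (SE; interval -0.28 to 1.13, limma adjusted p = 0.555), and 0.10 without 12h replicate 2.

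**Figure D2:**
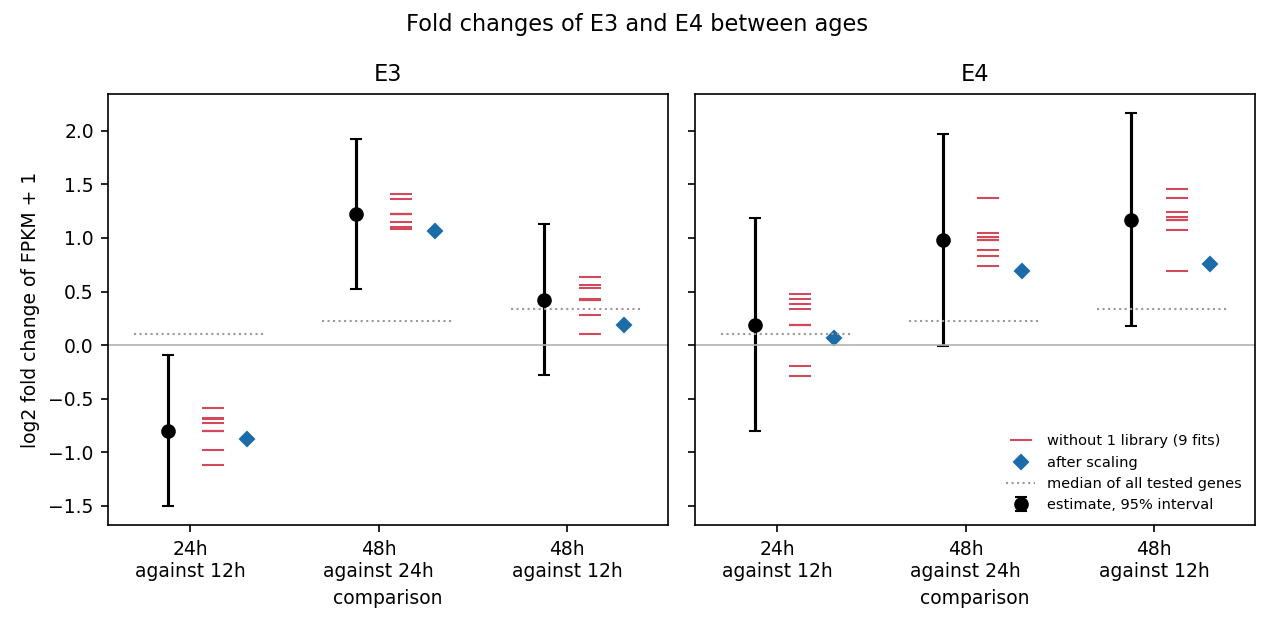
Log2 fold changes of FPKM + 1 for E3 (left) and E4 (right) in the 3 comparisons, the later age over the earlier; black points are estimates with 95% intervals, red dashes leave out 1 library each, blue diamonds follow scaling, and dotted lines are the median of all tested genes. For E3, the estimates are -0.80, 1.22 and 0.42, and for E4 0.19, 0.98 and 1.17.

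Over the 3 ages together, limma's F test gave an adjusted p of 0.365 for E3 (F = 7.44, unadjusted p = 0.00803) and of 0.365 for E4 (F = 3.81, unadjusted p = 0.0525). It called 0.0286% of all tested genes, and 13.6% at an unadjusted p under 0.05. E3 passed this test without 12h replicate 2 (F = 15.2, limma adjusted p = 0.0388), as did 9.91% of all tested genes. Array weights called E3 and E4 together with 21.3% of them. E4 passed in 0 of the 9 fits that left out 1 library.

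FPKM are per transcript length, so E3 and E4 can also be compared within a library. The scaling of the library cancels in the plain ratio, but not fully once 1 FPKM is added to each gene. In 12h replicates 1 and 2, plain ratios of 14.04% and 12.9% became log2 values of -2.25 and -1.60 with 1 FPKM added. E3 was below E4 in 9 of 9 libraries. The mean log2 ratio of (E3 + 1) to (E4 + 1) was -2.49 ± 0.54 (SD, n = 9), with a two-sided exact sign-flip permutation p of 0.00391, the smallest that 9 libraries can give. The level of E3 was 14.04%, 12.9% and 19.7% of that of E4 in the 12h libraries, 4.26%, 2.79% and 1.34% in the 24h libraries, and 16.35%, 8.53% and 9.58% in the 48h libraries. E3 was thus relatively scarcest in all 3 of the 24h libraries, those of higher and of lower median alike.

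The ratio of E3 to E4 lay below the 12h range in every 24h library. With 1 FPKM added to each gene, its log2 value differed by -0.99 between 24h and 12h (exact permutation p = 0.1, the smallest for 3 against 3 libraries) and by 0.24 between 48h and 24h, where the groups overlapped (exact permutation p = 0.6). For 48h against 12h it differed by -0.75 (exact permutation p = 0.2). The added 1 FPKM exceeds the level of E3 at 24h. Without it, a setting chosen after seeing the data, the 24h minus 12h difference was -2.60 and the 48h minus 24h difference 2.13, with no overlap in either (exact permutation p = 0.1 each). At this level an FPKM estimate rests on few fragments, whose number is unknown.

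The duplicates of E3 and E4 gave a reading of each pair. E4 and PHYA1 were near parity at 12h and E4 was in excess later. The ratio of E4 to PHYA1 was 1.09, 1.09 and 1.21 in the 12h libraries, 1.81, 1.38 and 2.08 in the 24h libraries, and 1.53, 1.75 and 1.80 in the 48h libraries. All 6 later values were above all 3 values at 12h. On the log2 scale with 1 FPKM added, the 24h minus 12h difference was 0.53 and the 48h minus 12h difference 0.55 (exact permutation p = 0.1 each). For 48h against 24h it was 0.02, with overlap (exact permutation p = 0.9). The 12h, 24h and 48h means of PHYA1 itself were 7.24 ± 3.79, 5.35 ± 2.81 and 10.6 ± 0.784 FPKM (± SD, 3 libraries per group).

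E3 exceeded PHYA4 in 8 of 9 libraries. The ratio of E3 to PHYA4 was 1.995, 2.62 and 3.06 at 12h, 1.74, 1.45 and 0.500 at 24h, and 2.62, 1.65 and 3.29 at 48h. Both members of this pair had their lowest mean at 24h. The 12h, 24h and 48h means of PHYA4 were 0.537 ± 0.333, 0.224 ± 0.138 and 0.833 ± 0.212 FPKM (± SD, 3 libraries per group). PHYA4 was not tested, since it reached 1 FPKM in 1 library.

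Over the 3 ages, exact permutation tests of these log2 ratios with 1 FPKM added gave p = 0.0429 for E3 to E4, 0.0321 for E4 to PHYA1 and 0.0607 for E3 to PHYA4. Adjusted over the 3 ratios, the exact permutation p was 0.0607 for each, so 0 of 3 passed. Without an added value, the adjusted exact permutation p was 0.0321 for E3 to E4, 0.0429 for E4 to PHYA1 and 0.0821 for E3 to PHYA4. The tests over the 3 ages, and all tests of E4 to PHYA1 and of E3 to PHYA4, were chosen after seeing the data. Leaving out 1 library moved the unadjusted exact permutation p of E3 to E4 to between 0.0464 and 0.132, under 0.05 only without 48h replicate 1. That of E4 to PHYA1 moved to between 0.0143 and 0.0714, under 0.05 in 3 of 9 cases.

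**Figure D3:**
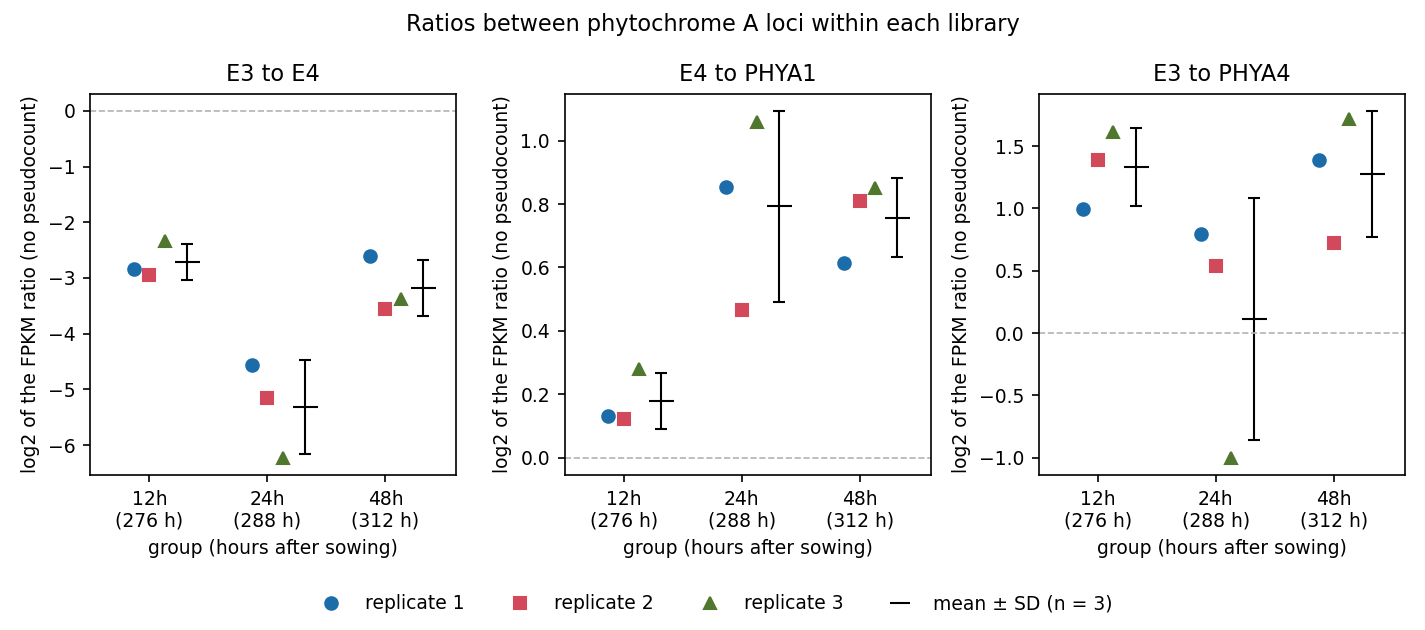
Log2 ratios of FPKM within each library, with no value added, for E3 to E4, E4 to PHYA1 and E3 to PHYA4, by group with hours after sowing; bars are the mean ± SD of 3 libraries, and the dashed line marks equal levels. E3 to E4 averages -2.71, -5.31 and -3.18 at 12h, 24h and 48h, and E4 to PHYA1 averages 0.18, 0.79 and 0.76.

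By the mean over 9 libraries, E4 was the most abundant of the 8 phytochrome loci listed, and E3 the fifth. This mean was 11.9 FPKM for E4, 7.73 FPKM for PHYA1, 3.47 FPKM for PHYB1 (Glyma.09G035500), 1.82 FPKM for PHYB2 (Glyma.15G140000), 1.22 FPKM for E3, 0.531 FPKM for PHYA4 and 0.324 FPKM for PHYE1 (Glyma.09G088500). PHYB1 and PHYB2 are published as phytochrome B genes, the light-stable main red-light receptors of other plants, and PHYE1 and PHYE2 as phytochrome E genes. PHYE2 (Glyma.15G196500) was listed at 0 in all 9 libraries. The 12h, 24h and 48h means were 2.94 ± 1.65, 2.695 ± 0.792 and 4.79 ± 0.493 FPKM for PHYB1, 1.33 ± 0.860, 1.45 ± 0.314 and 2.696 ± 0.308 FPKM for PHYB2, and 0.350 ± 0.3199, 0.105 ± 0.106 and 0.518 ± 0.111 FPKM for PHYE1 (± SD, 3 libraries per group). A lowest group mean at 24h was thus not particular to E3 and PHYA4, since PHYA1, PHYB1 and PHYE1 shared it. E4 and PHYB2 had theirs at 12h. Neighbours in the order of the means over 9 libraries were compared within libraries by two-sided exact sign-flip permutation tests, adjusted over 6 pairs. The order came from the same libraries, so these p-values are not independent support for it. E4 exceeded PHYA1 in 9 of 9 libraries (adjusted exact permutation p = 0.00781). E3 lay below PHYB2 in 7 of 9 (adjusted exact permutation p = 0.0273), with a mean of 1.33 FPKM for both at 12h, and above PHYA4 in 8 of 9 (adjusted exact permutation p = 0.0141).

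The same values can be read as the make-up of the phytochrome A transcripts. Of the summed FPKM of the 4 phytochrome A loci, E3 made up 7.41% ± 1.79, 1.69% ± 0.880 and 6.46% ± 1.97 in the 12h, 24h and 48h libraries (± SD, 3 libraries per group). For E4 the shares were 47.6% ± 0.446, 61.3% ± 4.68 and 57.1% ± 3.40 in the same order of groups (± SD, 3 libraries per group). The E4 share was nearly constant among the 12h libraries although their E4 levels differed widely.

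**Figure D4:**
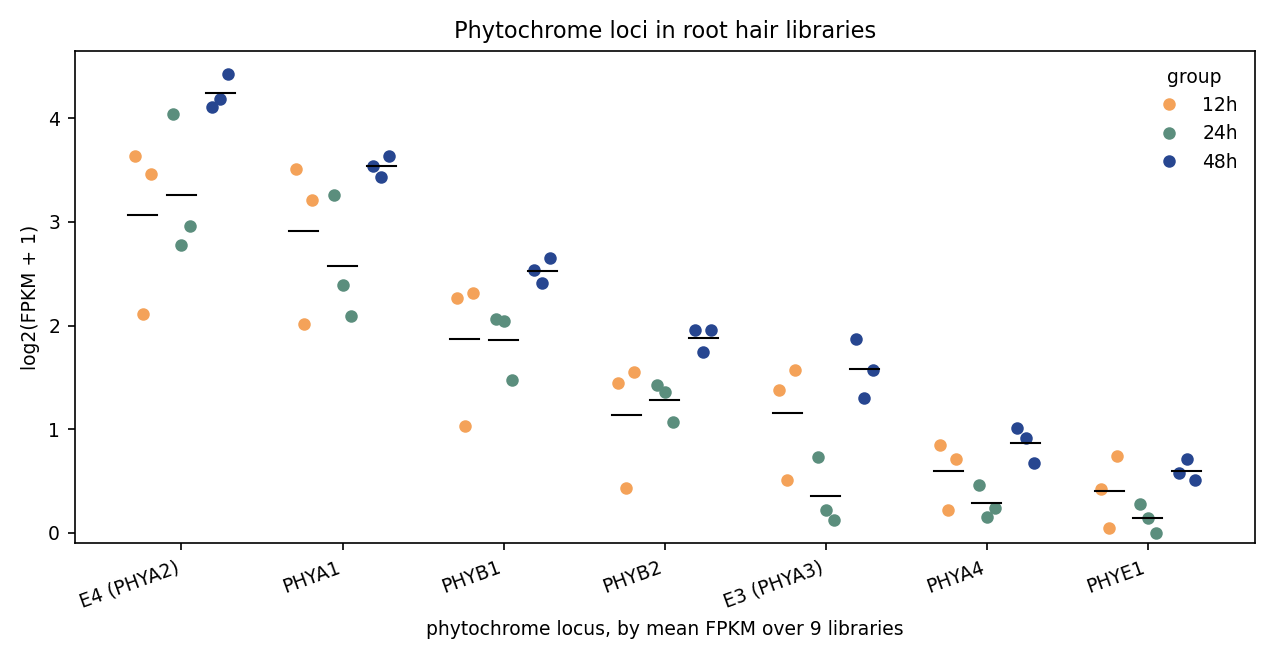
Log2(FPKM + 1) of 7 phytochrome loci in 9 libraries, ordered by mean FPKM, with 1 point per library coloured by group and a black line at each group mean; PHYE2, listed at 0 throughout, is not drawn. E4 is highest with a mean of 11.9 FPKM over the libraries, and the 24h points of E3 lie near those of PHYA4.

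Of the 8 phytochrome loci, 5 passed the filter, and 0 of 5 were called in any comparison. Without 12h replicate 2, E3 was the 1 of the 5 called in each of the comparisons with 24h. The share of all tested genes called in that fit was 12.1% from 12h to 24h, and 11.8% from 24h to 48h. Array weights called 4 of the 5 between 48h and 24h, along with 30.6% of all tested genes. For 48h against 24h all 5 had positive changes, with a median of 0.96, beside 0.23 for all tested genes. The median was -0.01 in the comparison of 24h with 12h, beside 0.10, and 0.66 in that of 48h with 12h, beside 0.34. Among these 5, E3 had the most negative value for 24h against 12h and the highest for 48h against 24h. E4 had the highest for 48h against 12h.

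The signalling partners of phytochrome A were represented by 4 loci. COP1a (Glyma.02G267800) and COP1b (Glyma.14G049700) are published as COP1-type ubiquitin ligases, and STF1 (Glyma.18G117100) and STF2 (Glyma.08G302500) as HY5-type bZIP factors. With all 9 libraries and equal weights, COP1b was the only one of the 4 called. Its call was for 48h against 12h, where 0.117% of all tested genes were called. Of the 4 log2 differences in that comparison, 2 were positive and 2 negative. Its mean was 4.82 ± 0.603 FPKM in 48h libraries, against 0.442 ± 0.163 FPKM in 12h libraries (± SD, 3 libraries per group), a log2 difference of 2.01 (limma adjusted p = 0.0267). The call was lost after median-of-ratios scaling (log2 difference 1.73), after quantile normalization (1.63), with no filter on low values (2.01), and in each fit that left out a 12h or a 48h library (1.95 to 2.102). The mean of STF1 was 1.996 ± 0.164 FPKM in 24h libraries, against 12.6 ± 9.36 FPKM in 12h libraries (± SD, 3 libraries per group, limma adjusted p = 0.499). Like E3, STF1 and STF2 had their lowest group mean at 24h, which for STF2 was 1.55 ± 0.478 FPKM (± SD, 3 libraries). Without 12h replicate 2, 2 of the 4 loci were called between 24h and 12h, beside 12.1% of all tested genes. In that fit 1 was called between 48h and 24h, beside 11.8%. With the 24h and 48h libraries alone, 2 were called, beside 17.2%, and 1 when scaling was added, beside 12.1%. Array weights called 4 of 4 between 48h and 24h, beside 30.6%.

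The flowering genes downstream of E3 and E4 in leaves were at or near 0 in these libraries. Of 7 listed loci for E1, its relatives and FT-type proteins, 4 were listed at 0 in all libraries and none exceeded 0.1201 FPKM. E1 (Glyma.06G207800) was above 0 in 3 libraries, with at most 0.0714 FPKM. None of the 7 passed the filter, so no change could be tested for the genes on which E3 and E4 act in flowering.

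Of 10 clock loci, 4 were called for 48h against 12h, all higher, beside 0.117% of all tested genes. In the other comparisons 0 were called. Without 12h replicate 2, 4 were called between 48h and 24h, beside 11.8% of all tested genes, and 3 between 24h and 12h, beside 12.1%. Between 48h and 24h, 4 were also called with those libraries alone, beside 17.2% of all tested genes, and 7 with array weights, beside 30.6%. When scaling was added to the fit of those libraries alone, 1 clock locus was called, beside 12.1% of all tested genes. The 4 called between 48h and 12h are published as LHY, which in Arabidopsis is a dawn-expressed MYB factor of the clock. The highest, LHY1a (Glyma.16G017400), averaged 146 ± 47.0 FPKM in 48h libraries, against 3.22 ± 0.794 FPKM in 12h libraries (± SD, 3 libraries per group, limma adjusted p = 0.00899). The others had log2 differences of 3.44 for LHY1b (Glyma.07G048500), 3.99 for LHY2a (Glyma.19G260900) and 4.95 for LHY2b (Glyma.03G261800), with a limma adjusted p of 0.0221 each. None of the 4 was called after scaling of all 9 libraries, with no filter on low values, or in the fits that left out replicate 1 of 12h, replicate 2 of 12h or replicate 1 of 48h. In the fits that left out replicate 3 of 24h, replicate 2 of 48h or replicate 3 of 48h, 1 of the 4 was called. The LHY loci had their lowest means at 12h. E3 had its own at 24h, as did the clock locus listed as PRR3b (Glyma.12G073900). Its 12h, 24h and 48h means were 13.43 ± 11.45, 2.533 ± 0.846 and 7.745 ± 3.93 FPKM (± SD, 3 libraries per group). The remaining clock loci had their lowest means at 48h. J (Glyma.04G050200), published as ELF3, averaged 7.29 ± 1.87 FPKM in 48h libraries, against 28.3 ± 19.6 FPKM in 12h libraries (± SD, 3 libraries per group, limma adjusted p = 0.458). E2 (Glyma.10G221500), the maturity locus published as GIGANTEA, averaged 12.1 ± 5.004 FPKM in 48h libraries, against 17.5 ± 15.1 FPKM in 12h libraries (± SD, 3 libraries per group, limma adjusted p = 0.975).

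Across libraries, the levels of E3 and E4 were correlated at r = 0.72 (Pearson, log2 scale, 9 libraries that share their scaling), and those of E4 and PHYA1 at 0.92. The r of E3 was 0.88 with PHYA1, 0.77 with PHYB1 and 0.73 with PHYB2. That of E4 was 0.88 with PHYB1 and 0.91 with PHYB2. Among the 17220 tested genes that averaged 5 FPKM or more, the profile most like that of E3 belonged to Glyma.05G202800 (r = 0.99) and Glyma.12G192000 (r = 0.98). The 12h, 24h and 48h means of Glyma.12G192000 were 7.79 ± 3.70, 4.31 ± 1.79 and 11.1 ± 2.25 FPKM (± SD, 3 libraries per group). Glyma.20G137900 (r = 0.99) and Glyma.04G177000 (r = 0.98) were most like E4. These values are given as a description.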

How the data were processed

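The authors deposited FPKM for 56044 gene IDs in 9 columns, 1 per library. The submitters' processing notes list TopHat2 2.1.0 and Cufflinks 2.2.1, and the labels' protocols a TruSeq v2 kit. Genome build and annotation: not given in the sources used here. The deposited table's name refers to tissue culture, whereas the labels say root hair cells, and the labels were followed. Whole reads could not be recovered (over 36 pairs of libraries, 1.44% to 5.74% of genes under 0.2 FPKM lay within 1% of the most common ratio), so the depth of each library is unknown and counting intervals could not be computed. A value of 0 can be a failed estimate.

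The 31518 genes that reached 1 FPKM in 3 or more libraries were fitted with limma 3.58.1 in R 4.3.3 on log2(FPKM + 1), with an intensity trend, a term per group and 5.893 prior degrees of freedom. Fold changes on this scale understate those of low genes such as E3. The fit was tested on simulated data. Log2 ratios between genes within a library were compared with exact permutation tests. Alternatives were other pseudocounts, filters, scalings and weights, a replicate block, and fits leaving out libraries.

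The members and lists were chosen with earlier results of these data known. E3 and E4 are given throughout, other phytochrome loci by group, and from other lists up to 4 of the most abundant members and any called. PRR3b of the clock list is given as well, for its lowest group mean at 24h. The 36 listed IDs were all in the table. None (0 matched) could be paired with the RefSeq table of assembly Glycine_max_v4.0, so 10 lists by description words were not tested, and no sequence is shown.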

Additional observations from a re-analysis of the deposited data

How the results depend on the processing

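Across 19 or 20 alternative fits per comparison, E3 kept its sign in all, and E4 in all for both comparisons with 48h. Array weights called E3 for 48h against 24h (log2 fold change 1.25) and over the 3 ages (F = 15.1), and E4 for 48h against 24h (1.06) and over the 3 ages (F = 8.19). They also called 7397 genes higher and 2251 lower for 48h against 24h, against 0 and 0 with equal weights. With only the 24h and 48h libraries, E3 was called at 1.22, and at 1.11 when scaling was added, beside 4314 genes higher and 1098 lower, and 1998 and 1809 when scaled. Leaving out 1 library gave -1.12 to -0.59 for E3 and -0.29 to 0.47 for E4 at 24h against 12h, 1.08 to 1.41 for E3 at 48h against 24h, and F of 4.57 to 15.2 for E3 over the 3 ages. E4 at 24h against 12h turned negative with array weights (-0.35). Among ratios, E4 to PHYA1 for 48h against 24h turned to -0.0283, -0.0178 and -0.0359 with 0.1, 0.25 and no FPKM added, and ran from -0.12 to 0.12 without 1 library. E3 to PHYA4 for 48h against 12h was -0.0581 with none added, against 0.15 with 1 FPKM added. The cause of these changes was not tested.

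Between libraries of different groups, deviations from the group means correlated at -0.0778 to 0.351 for the same replicate number. For different numbers the correlations were -0.457 to 0.229. Whether replicate numbers pair the libraries was not tested. The replicate block called neither gene (E3 at 48h against 24h, limma adjusted p = 0.171) and gave 89 genes higher for 48h against 12h, against 37 without it. Without 12h replicate 2, 1 was higher there, and for 48h against 24h 3146 were higher and 584 lower, against 0 and 0 with all libraries. Depth is unknown, which leaves the counting error of E3 at 24h unknown.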

Other observations

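Cryptochromes, the blue-light receptors listed beside the phytochromes, included the loci CRY2a and CRY2c, whose group means were above those of E3 and E4 at every age. Of 7 loci published as cryptochrome genes, 6 passed the filter and 0 were called in any comparison. The 12h, 24h and 48h means of CRY2a (Glyma.10G180600) were 38.4 ± 23.5, 17.1 ± 8.92 and 48.5 ± 9.20 FPKM (± SD, 3 libraries per group). In the same order, CRY2c (Glyma.20G209900) averaged 35.2 ± 21.1, 25.1 ± 11.3 and 53.5 ± 2.95 FPKM, and CRY2b (Glyma.02G005700) 9.28 ± 5.10, 4.01 ± 1.85 and 10.4 ± 0.713 FPKM (± SD, 3 libraries per group). These 3 loci shared with E3 a lowest group mean at 24h, whereas CRY1c (Glyma.14G174200) averaged 8.45, 9.40 and 15.8 FPKM and, like E4, was lowest at 12h. All 6 had positive log2 fold changes for 48h against 24h, with a median of 1.11, beside 0.23 for all tested genes (limma adjusted p 0.248 to 0.324). Without 12h replicate 2, 4 of the 6 were called between 48h and 24h, as were 11.8% of all tested genes, and 2 between 24h and 12h, as were 12.1%. Array weights called 6 of 6 between 48h and 24h, along with 30.6% of all tested genes.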
